A study of Arabidopsis thaliana with 6 samples.

Results

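The genes described here are 43 Arabidopsis genes that encode proteins of the cytosolic ribosome, chosen as a list of AGI codes, of 27444 protein-coding genes in all. They encode 21 different proteins, 28 genes for the large subunit and 15 for the small subunit. For 16 of the proteins the list holds at least 2 paralogous genes, and 5 proteins are represented by 1 gene. A gene was called marked when a listed peak overlapped its body or the 500 bp upstream of its start by at least 1 bp.

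All seedlings were ein2-5 loss-of-function mutants, which lack working EIN2, a membrane protein that the ethylene response requires. Whole seedlings grown for 3 days in the dark were treated for 4 h with air or with 10 ppm ethylene, and each treatment had 2 libraries made with an antibody against H3K9Ac and 1 control library (titled IgG, with Protein G beads named as the reagent). The 2 H3K9Ac libraries of a treatment were pooled by the study before peaks were called, so each gene has 1 value for air and 1 for ethylene, there is no replicate spread, and no difference between treatments could be tested. The air list held 18314 peaks from 45582654 H3K9Ac tags and 13726993 control tags, and the ethylene list held 12864 peaks from 43572576 H3K9Ac tags and 4354374 control tags. Before testing, the peak caller multiplied the H3K9Ac pileup by the ratio of control to H3K9Ac tags, which was 0.301 in air and 0.0999 in ethylene, so in ethylene a region had to clear its background with fewer scaled tags. The shallower control is the ethylene control, and its effect on the ethylene list cannot be told apart from that of the gas.

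Ribosomal proteins assemble with ribosomal RNA into the small subunit, which reads the messenger RNA, and the large subunit, which joins amino acids. In plants each of these proteins is encoded by a small family of genes rather than by a single gene, and the genes are strongly transcribed in dividing and growing tissue. H3K9Ac, the acetylation of a lysine in the tail of histone H3, is a mark of the nucleosomes just downstream of the start of active genes.

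The promoters of these genes share short sequence elements, and they are shown here because the peaks begin close to them. The telo box, AAACCCTAA, named after its likeness to the plant telomere repeat, and the site II elements TGGGCC and TGGGCT were searched on both strands from 250 bp upstream to 50 bp downstream of the start. The telo box was found at 11 of 43 genes (25.6%, against 3.6% of all coding genes), and at least 1 of the site II elements at 31 of 43 (72.1%, against 21.7%). Both kinds occurred together in 8 promoters (18.6%, against 1.29%), and 34 promoters (79.1%, against 24.0%) held at least 1 of them. The 12 telo boxes began between 44 bp upstream and 32 bp downstream of the start, with a median of 19 bp downstream, whereas the 39 copies of TGGGCC had a median of 30 bp upstream and the 40 copies of TGGGCT a median of 44 bp upstream. In the 49 other cytosolic ribosomal protein genes the shares were 36.7% for the telo box and 79.6% for site II, and in the 30 nuclear genes for plastid ribosomal proteins they were 3.33% and 46.7%. These are matches of letters, not mapped binding sites. Windows of 30 bases from the TAIR10.1 genome (RefSeq), on the strand of the gene and with the element in capitals, are given for genes that the results below return to.
RPS18 gene AT1G22780, chr1:8067869-8067898, plus strand: ttaggttggaAAACCCTAAatatgccgctt
RPS6 gene AT5G10360, chr5:3260212-3260241, minus strand: ctttctcgcaAAACCCTAAaagctgagccg
RPL24B, chr3:19662079-19662108, minus strand: gcctatttgtgaTGGGCCtatttagtgggc
RPL8 gene AT2G18020, chr2:7837025-7837054, plus strand: aagatccacttaGGCCCAttagggttagaa
GGCCCA in the RPL8 window is TGGGCC read on the other strand. The air peak began 30, 29, 81 and 49 bp downstream of the start, in the order in which the genes are printed, and at AT1G22780 and AT5G10360 this lies inside the printed window.

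In air, 41 of the 43 genes carried a peak (95.3%, 95% Wilson binomial interval 84.5 to 98.7), against a background of 60.9% of all coding genes. In ethylene 33 of 43 did (76.7%, interval 62.3 to 86.8), against a background of 46.0%. The intervals cover counting error only, as if the genes were independent draws. The genes were chosen as a list and many are paralogues, so the intervals are not a test against the background. Counting only peaks that overlapped the gene body, the numbers were 41 and 32, against backgrounds of 58.6% and 43.4%. All 15 small-subunit genes and 26 of 28 large-subunit genes were marked in air, and 13 and 20 of them in ethylene. The large-subunit genes without a peak in air, and the small-subunit gene RPS15A, hold repeated sequence and are described below. Of the 41 genes marked in air, 8 had no peak in ethylene, beside 24.8% of all coding genes marked in air, and no gene was marked in ethylene alone.

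The 2 genes without a peak in either list both encode RPL9, a protein of the large subunit: AT1G33120 (chr1:12010879-12012547, plus strand) and AT1G33140, also called PGY2 (chr1:12023225-12024783, plus strand). They are near-identical neighbours whose coding sequences match at 99.1% of bases. None of the 51-base words in the first 600 bp of either gene occurs once in the genome (0%), and from the start onwards 680 and 708 consecutive words recur in the other copy. The study kept uniquely mapped reads of 51 bp, and such reads cannot be placed in these stretches, so the lists give no measurement of H3K9Ac at these starts. The third RPL9 gene, AT4G10450 (chr4:6462918-6464558, minus strand), shares 80.0% of its coding bases with AT1G33120, has only words that occur once, and was marked in both lists, at a breadth of 526 bp (air) and 202 bp (ethylene). The first 30 coding bases of the RPL9 genes are printed to show the identity of the pair and the distance of AT4G10450. Capitals mark the 7 bases at which AT4G10450 differs from AT1G33120.
AT1G33120, chr1:12010986-12011015, plus strand: atgaagacgattctttcttccgaaacgatg
AT1G33140, chr1:12023360-12023389, plus strand: atgaagacgattctttcttccgaaacgatg
AT4G10450, chr4:6464429-6464458, minus strand: atgaagacCattTtGtcCtcGgaGacTatg
The same holds for their promoters, where the telo box window reads tgaaagatatTTAGGGTTTtttctcttgat at both AT1G33120 and AT1G33140.

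The third gene with repeated sequence was RPS15A (AT1G07770, chr1:2407411-2409791, minus strand), which encodes a small-subunit protein. Of the words in its first 600 bp 17% occur once, and a copy of 584 of its words lies on the same chromosome in and next to the neighbouring gene PAI1. Its only peak, chr1:2407635-2407843, was 209 bp broad, lay in its 3′ UTR 2042 bp from the start, and was absent in ethylene. The other 40 genes had at least 90% words that occur once, and for 31 of them every word did. Over all coding genes, 5.08% fell below 90%. Of the 40 genes with unique sequence, 40 were marked in air and 33 in ethylene. The share of all coding genes under the same restriction is not given, so the contrast with it was not tested.

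Where the peaks lay in the gene was nearly uniform. No start of any of the 43 genes was itself inside a peak, in either list, although the share is low for all coding genes marked in the body too (5.22% in air and 2.05% in ethylene). In air the peak began at a median of 97 bp downstream of the start and ended at 710 bp, against 125 and 775 bp for all coding genes. The summit, the position of highest tag pileup within the tallest peak of the gene body, lay at a median of 269 bp downstream of the start in air, with quartiles of 222 and 335 bp, and the median over all coding genes was 337 bp. In ethylene the median was 266 bp, against 352 bp. In air 38 of 41 summits fell within the first 600 bp of the gene and 35 within the first 400 bp. The other cytosolic ribosomal protein genes lay closer still, at a median of 230 bp, while translation factors lay at 282 bp.

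**Figure D1:**
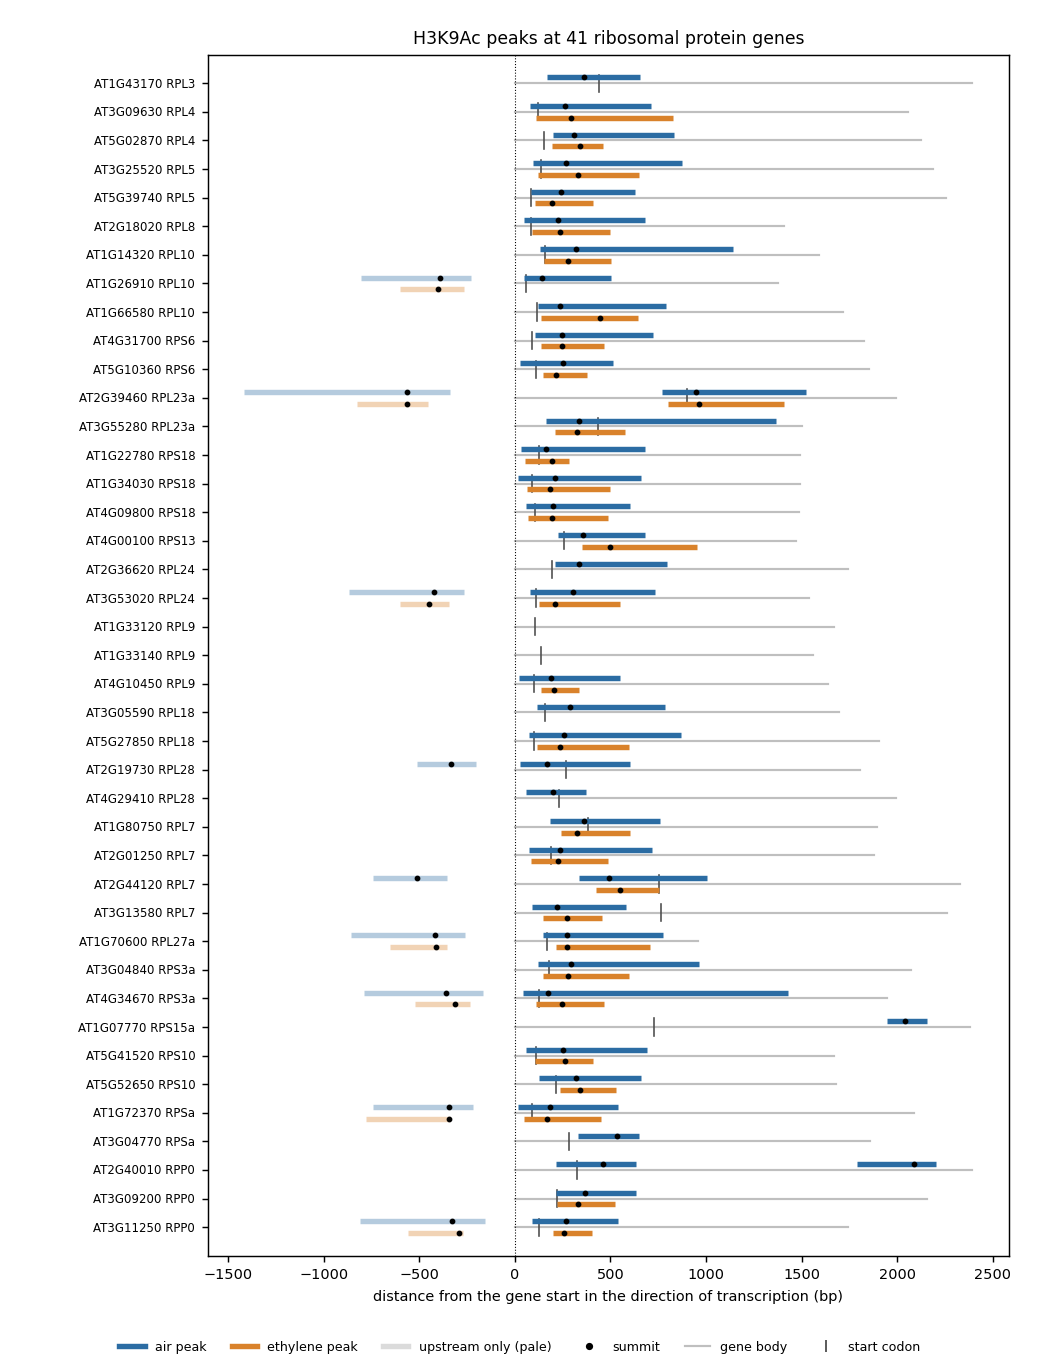
Peaks of 41 of the 43 genes drawn against distance from the gene start in bp, with air in blue above and ethylene in orange below, black dots for summits, grey lines for gene bodies, ticks for start codons, and pale bars for peaks that lie wholly upstream. The air summit of the body lies within the first 600 bp at 36 of the 39 drawn genes with an air peak, and the RPL9 genes AT1G33120 and AT1G33140 have none.

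Relative to the coding sequence, 34 of the 41 air summits lay past the start codon (82.9%, against 75.9% of all coding genes marked in the body), at a median of 116 bp beyond it, against 121 bp. The annotated feature under the summit differed from the average gene: 22 air summits (53.7%) were in an intron and in all 22 cases this was the first intron, against 21.5% of all coding genes with the summit in the first intron. Coding sequence held 17 (41.5%, against 61.9%), a 5′ UTR held 1 and a 3′ UTR held 1. In ethylene 16 of 32 summits (50%) were in the first intron, against 20.9%. The gene structures differ in the same place: the first intron of the 43 genes begins at a median of 191 bp from the start, against 339 bp for all coding genes, and 1 gene (2.33%) has no intron, against 20.4%. That gene is AT1G70600, for RPL27a, 959 bp long and the shortest of the list. Both RPL5 genes show the arrangement. In AT3G25520, whose first intron runs from 141 to 513 bp, the air summit was at 269 bp, and in RPL5B, with a first intron from 89 to 499 bp, it was at 242 bp. Both RPL4 genes have long first exons and are of the other kind, with air summits in coding sequence at 261 bp in AT3G09630 and at 310 bp in AT5G02870.

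The air summit of the body lay beyond 600 bp at 3 genes. In RPS15A it was the 3′ UTR summit already given. In RPL23AA (AT2G39460) it was at 945 bp, counted as elsewhere from the start of the annotated gene. The transcript used for the gene structure begins further in. Its first exon is 142 bp long, its start codon lies at 900 bp and its first intron begins at 916 bp. The summit was 45 bp past the start codon. In the RPP0 gene AT2G40010 (chr2:16708379-16710772, minus strand) the taller of its 2 air peaks lay in coding sequence near the 3′ end. Its summit was at 2087 bp, with 196 tags. The other peak had its summit within the first 600 bp, at 463 bp, with 171 tags. RPP0 is the base of the ribosomal stalk, to which translation factors bind.

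**Figure D2:**
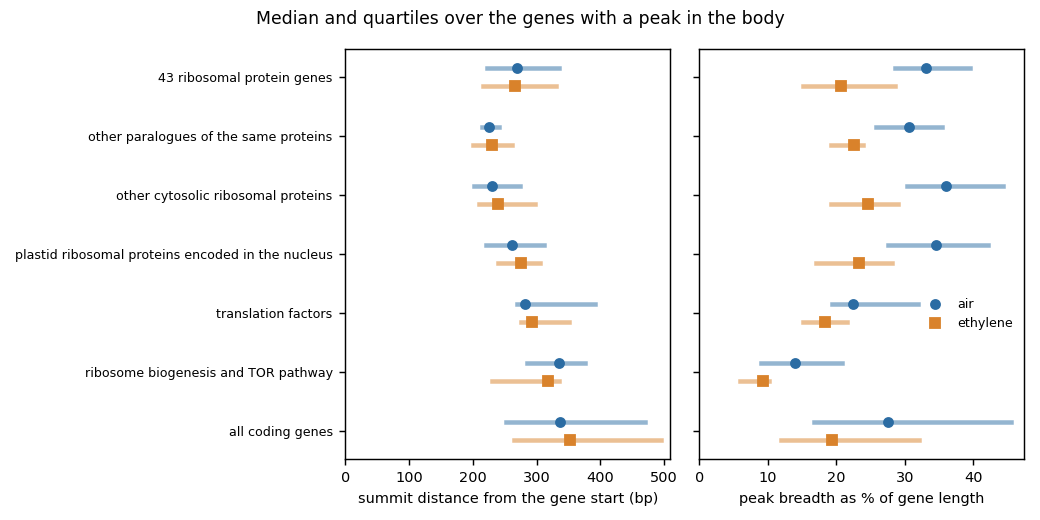
Median (point) and quartiles (bar) of the summit distance from the gene start in bp, left, and of body-peak breadth as a percentage of gene length, right, for the 43 genes and 6 other sets, with air in blue and ethylene in orange. The summit medians of the 43 genes, 269 bp in air and 266 bp in ethylene, lie below those of all coding genes, 337 and 352 bp.

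Peaks also overlapped the 500 bp upstream of 9 genes in air without reaching the gene body, and at 8 of these the summit of that peak was inside a neighbouring gene transcribed in the opposite direction whose start was 89 to 170 bp away. The upstream peak of RPL23AA was 1077 bp broad and belonged in this way to MTP11, and that of the RPP0 gene AT3G11250, with 325 tags, to ATE2. The neighbour of the RPL28 gene AT2G19730 is itself a ribosomal protein gene, AT2G19720, for RPS15a. The exception was the RPL7 gene AT2G44120, whose upstream peak of 385 bp overlapped no gene. Such peaks were found upstream of 20.9% of the 43 genes, of 34.7% of the other cytosolic ribosomal protein genes and of 9.78% of all coding genes. Because these peaks sit on the neighbours, the values from here on are those of peaks that overlap the gene body unless the wider window is named.

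In air the peaks covered a median summed breadth of 617 bp, against 627 bp for all coding genes marked in the body. Gene lengths ran from 959 to 2394 bp with a median of 1806 bp, and breadth was a median of 33.1% of gene length, with quartiles of 28.6% and 39.5%. The median over all coding genes was 27.5%. Over the coding genes in the same range of lengths it was 37.8%, above the median of the ribosomal protein genes. The ethylene list gave a median breadth of 364 bp, or 20.7% of gene length, against 449 bp and 19.4% for all coding genes and 27.3% for those of like length. With the peaks in the 500 bp upstream included, the medians were 35.4% in air and 24.1% in ethylene.

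The broadest body peak in air was at the RPS3a gene AT4G34670 (chr4:16548600-16550549, plus strand), with 1388 bp or 71.2% of the gene. It was followed by RPL23AB with 1207 bp (80.2% of the gene), by the RPL10 gene AT1G14320, known as SAC52, with 1008 bp (63.4%), by the second RPS3a gene AT3G04840 with 845 bp (40.8%), and by the RPP0 gene AT2G40010, whose 2 peaks summed to 837 bp. With the upstream window the 5 broadest were AT4G34670 (2012 bp), RPL23AA (1830 bp), RPL24B (1254 bp), AT1G70600 (1223 bp) and RPL23AB (1207 bp), and in the first 4 of them part of the width is the peak of the divergent neighbour. The narrowest body peaks in air were those of RPS15A (209 bp), the RPL28 gene AT4G29410 (313 bp), RPSAb (320 bp), and the RPP0 genes AT3G09200 (419 bp) and AT3G11250 (452 bp). RPS13A followed with 453 bp.

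The height of the peaks was expressed as H3K9Ac tags at the summit, recovered from the deposited pileup. At most 400 tags can be counted at a position, because 1 tag per position and strand was kept and each was extended to 200 bp. In air the median was 283 tags, with quartiles of 269 and 304, and the median over all coding genes was 270. In ethylene it was 292 tags, against 284. The fold enrichment over the local background, as the authors' peak caller gave it, had a median of 2.52 in air (2.41 over all coding genes) and 2.30 in ethylene (2.22). Over all coding genes the quartiles of the air tags were 231 and 307, a wider range than that of the ribosomal protein genes.

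High summits in air were at the RPL8 gene AT2G18020 (331 tags), the RPL18 gene AT5G27850 (326 tags), RPS6A (325 tags) and the RPS10 gene AT5G52650 (319 tags). RPS6 is the ribosomal protein phosphorylated downstream of the TOR kinase, and RPL8 is known from embryo development. These 4 genes, among the 5 highest in air, were also high in ethylene, with 336, 313, 303 and 305 tags. In the wider window the peak of AT3G11250 with 325 tags is that of ATE2. The lowest summits were at RPSAb (AT3G04770, 153 tags), the RPP0 gene AT2G40010 (196 tags), RPL10B (212 tags), the RPL10 gene AT1G66580, known as SAG24 (216 tags), and RPS15A (242 tags). Of these 5, SAG24 had a body peak in ethylene too, again with 216 tags.

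**Figure D3:**
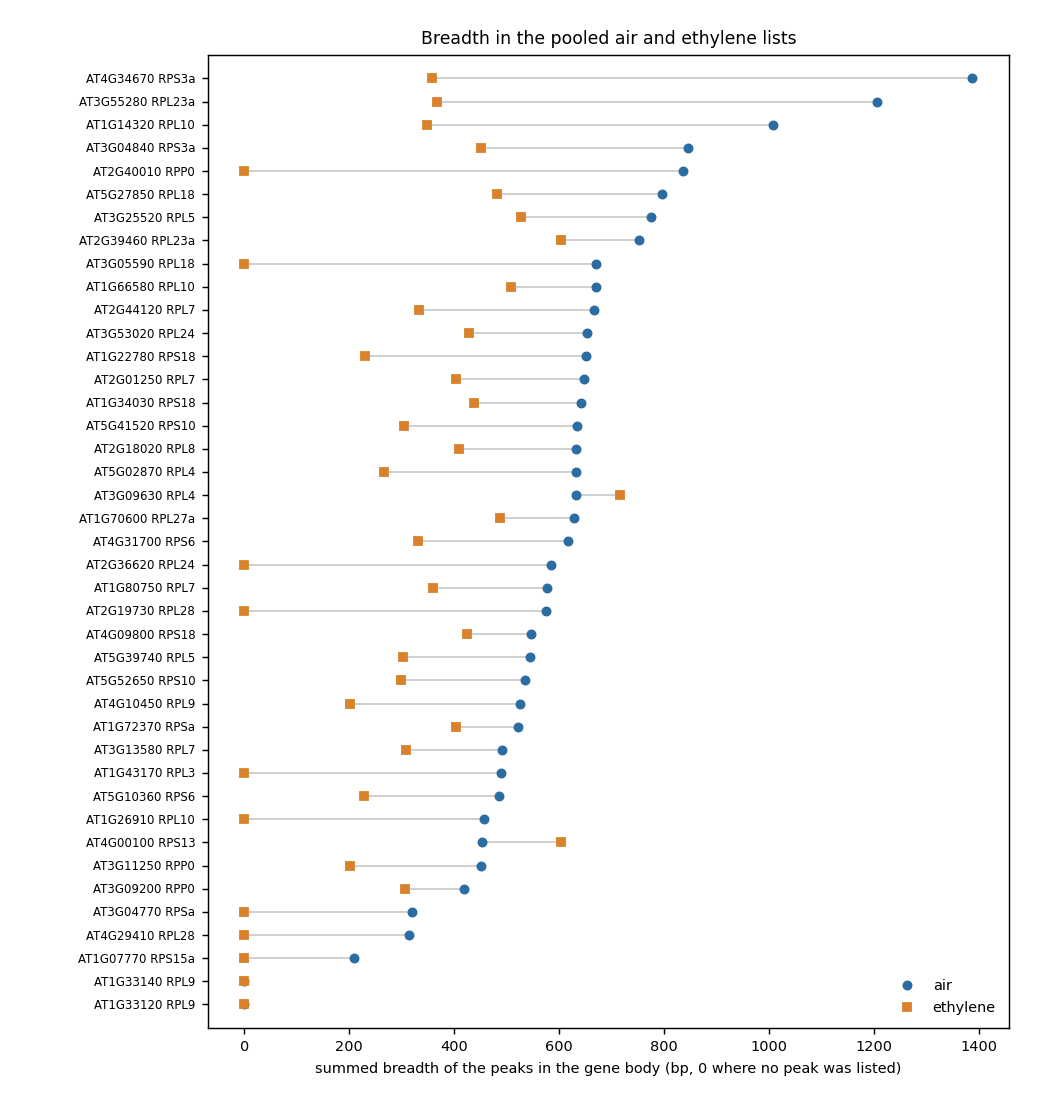
Summed breadth of the body peaks in bp for 41 of the 43 genes, ordered by the air value, with air as blue circles and ethylene as orange squares and 0 where no peak was listed. Ethylene lies to the left of air except at AT3G09630 and RPS13A (AT4G00100), and at the RPL9 genes with 0 in both.

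In the 33 genes marked in both lists in the wider window, 30 had less summed breadth in ethylene than in air and 3 had more. The change in breadth (ethylene value less air value) had a median of -257 bp. Of all coding genes marked in both lists 96.7% had less breadth in ethylene and 3.21% more, and their median change was -259 bp, close to that of the ribosomal protein genes. For body peaks alone 29 of 32 were lower and 3 higher (background 96.4% and 3.54%), the median change was -240 bp, and the ethylene breadth was a median of 61.6% of the air breadth, against 66.8%. The downstream edge differed more than the upstream edge. The first base of the peak lay a median of 41 bp further into the gene in ethylene, and the position of its last base changed by a median of -182 bp, towards the start, against 62 and -136 bp over all coding genes.

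The summits stayed close to their places: in 26 of 32 genes (81.2%, against 71.1% of all coding genes) the ethylene summit was within 50 bp of the air summit. The largest shift was 208 bp, at SAG24, from 237 bp in air to 445 bp in ethylene.

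The largest differences in body breadth were at AT4G34670, from 1388 bp in air to 357 bp in ethylene, and at RPL23AB, from 1207 to 368 bp. The RPP0 gene AT2G40010 went from 837 bp to no peak, the RPL18 gene AT3G05590 from 670 bp to no peak, and SAC52 from 1008 to 348 bp. With the upstream window the 5 largest differences were -1364 bp at AT4G34670, -880 bp at AT2G19730, -856 bp at RPL23AA, -839 bp at RPL23AB and -837 bp at AT2G40010. Among the 3 genes with more breadth in ethylene were the RPL4 gene AT3G09630 (chr3:2953693-2955748, plus strand), from 632 to 716 bp, and RPS13A (chr4:36916-38384, plus strand), from 453 to 603 bp. The second RPL4 gene, AT5G02870, did not share this and went from 632 to 267 bp. At AT3G09630 and RPS13A the local background in ethylene was 1.37 and 1.23 times the genome-wide level, below the median of 1.67 over the 43 genes' ethylene peaks, and their fold enrichments in ethylene were 2.82 and 2.49. The part of the background in their breadth was not tested.

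Tags at the summit did not differ in the same way as breadth. The ratio of ethylene to air, each as a share of all H3K9Ac tags and corrected for the ceiling of 400, had a median of 1.02 over 32 genes, with quartiles of 0.964 and 1.09, against 1.04 over all coding genes. A ratio of at least 1.2 was reached by 2 genes, beside 4.58% of all coding genes, and none was at or below 1 over 1.2, beside 0.818%. Both calls rest on the correction for the ceiling: without it 0 of the 32 genes reached 1.2, beside 0.213% of all coding genes, and the highest ratio was 1.14. With the correction the 2 genes were the RPS18 gene AT1G22780, known as PFL, with 283 tags in air and 309 in ethylene (ratio 1.26, 95% counting interval 1.06 to 1.5), and the RPS3a gene AT3G04840, with 253 and 275 tags (1.22, 1.02 to 1.45). PFL is named after the pointed first leaves of its mutant. Without the correction and with Poisson counting error their ratios were 1.14 (0.972 to 1.34) and 1.14 (0.959 to 1.35), which include 1. With the correction the intervals of the other 30 genes included 1, and the next highest ratio was at the RPL7 gene AT2G01250 (1.18, 1.00 to 1.41). Intervals that exclude 1 were thus 6.25% of the 32, close to the 5.71% over all coding genes. At PFL breadth went the other way, at 652 bp in air against 230 bp in ethylene.

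**Figure D4:**
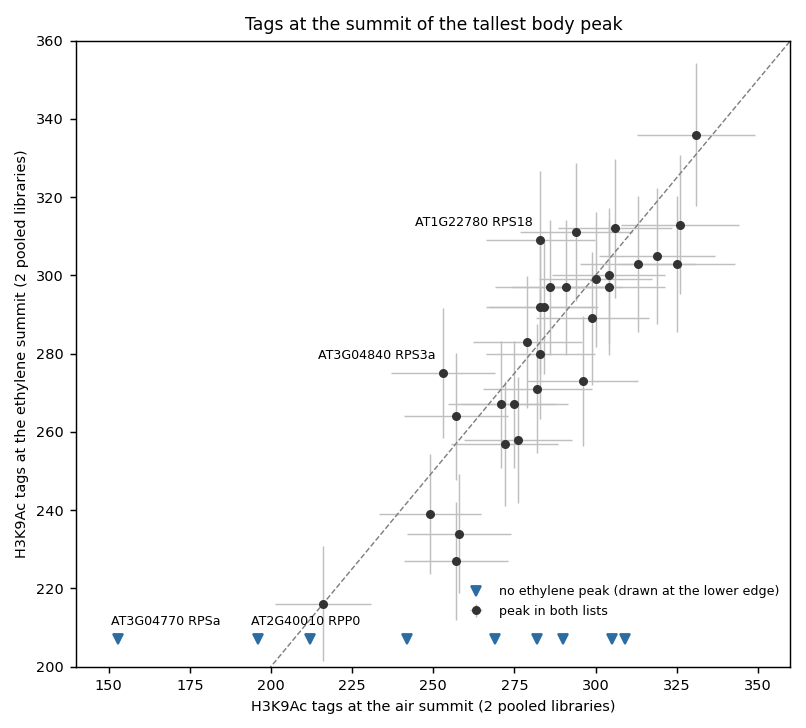
H3K9Ac tags at the summit of the tallest body peak in air (horizontal) and ethylene (vertical), 2 pooled libraries each, for 30 of the 32 genes with both values, with bars of 1 counting standard error (square root of the tags), a dashed line of equal tags, and blue triangles at the lower edge for genes without an ethylene peak, which have no ethylene value. The points lie along the line, and AT1G22780 and AT3G04840 lie above it.

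The genes with an air peak and no ethylene peak in the body were 9 of 41 (background 26.2%). They were RPL3A (305 tags and a fold enrichment of 2.85 in air), RPL18 gene AT3G05590 (309 tags, 2.94), RPL28 genes AT2G19730 (290 tags, 2.76) and AT4G29410 (282 tags, 1.65), RPL24A (269 tags, 2.52), RPL10B (212 tags, 2.07), RPS15A (242 tags, 1.85), RPSAb (153 tags, 1.69) and RPP0 gene AT2G40010 (196 tags, 2.00). RPL10B kept a peak in the wider window, that of its divergent neighbour. RPSAb, AT2G40010, RPS15A and AT4G29410 had the lowest air enrichments of these, 1.65 to 2.00. RPL3A, AT3G05590, AT2G19730 and RPL24A had 269 to 309 tags, heights that other genes of the list had in both lists. Over all coding genes the share without an ethylene peak was 58.2% where the air enrichment was below 2, 28.0% from 2 to 2.5, 11.6% from 2.5 to 3 and 4.70% above 3. Among the genes described here, also by body peaks, 3 of 4, 2 of 13, 4 of 19 and 0 of 5 had none in ethylene. RPL24A and RPL24B are 85.0% alike in coding sequence and differed in this: RPL24A measured 585 bp in air and had no ethylene peak, and RPL24B measured 653 and 429 bp.

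The RPS10 gene AT5G52650 (chr5:21355541-21357219, minus strand) had the highest fold enrichment of the 43 genes in air, 3.70, and one of the lower ones in ethylene, 1.97, while its summit held 319 and 305 tags. The local background from the control was 1.09 times the genome-wide level in air and 2.05 times in ethylene. The part of the control in the difference of fold enrichment was not tested.

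Paralogues of the same protein were compared next, over 29 pairs in the 16 families with at least 2 genes. Their coding sequences were identical at 57.5% to 99.1% of bases, with a median of 85.0%. Among 26 pairs with a body peak at both genes in air, the summits lay within 100 bp of each other, measured from each gene's own start, in 14, and the median difference in tags was 21.5. Paralogues were counted as different when they differed by the presence of a peak in a list or by more than 1.5 times in breadth or in tags in air. By the wider window 10 of 16 families differed, 5 by presence, 8 by breadth and 2 by tags, and by body peaks 9 did, 6 by presence, 6 by breadth and 2 by tags. These counts include RPL9, whose missing peaks are at the genes that unique reads cannot cover. Over the 15 families of genes with at least 90% words that occur once, 9 differed by the wider window, 4 of them by presence, and 8 by body peaks, 5 of them by presence. Each gene has 1 value a treatment and paralogues are not replicates, so these are descriptions. No such counts are given for pairs of unrelated genes, so whether paralogues differ more or less than other genes was not tested.

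**Figure D5:**
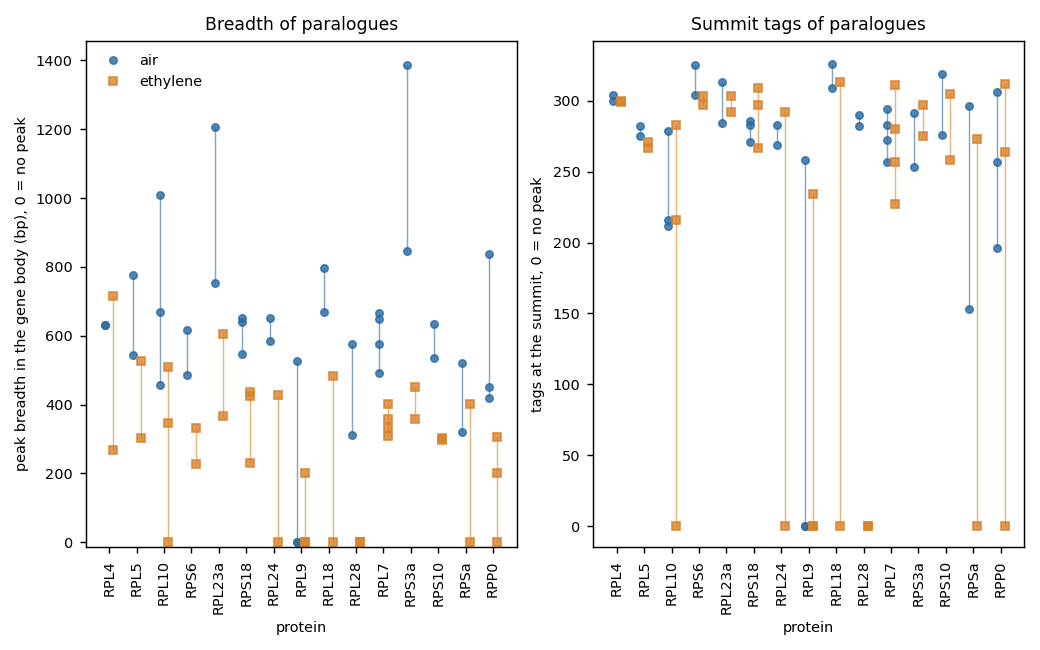
Body-peak breadth in bp, left, and tags at the summit, right, of the paralogues in 15 of the 16 families with at least 2 genes, with air as blue circles, ethylene as orange squares, lines joining the lowest and highest paralogue, and 0 for no peak. RPS18 genes lie together in air, between 546 and 652 bp, whereas RPSa genes lie at 296 and 153 tags.

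The widest difference in tags was in RPSa, a small-subunit protein at the surface of the ribosome. AT1G72370, also called P40 (chr1:27242845-27244931, minus strand), had 296 tags and 521 bp in air, and in ethylene 273 tags and 403 bp. RPSAb (chr3:1309273-1311129, minus strand) had 153 tags, 320 bp and a summit at 533 bp in air, and no ethylene peak. That summit was 250 bp past the start codon. The transcript used for the structure of RPSAb begins inside the annotated gene, with a first exon of 189 bp and a first intron from 431 bp. The 2 coding sequences are 70.8% identical, one of the lower values in the list, and AT1G72370 has a telo box 44 bp upstream of its start. RPP0 was the other family that differed by tags. AT3G09200 had 306 tags, AT3G11250 had 257 and AT2G40010 had 196 in air. The value of AT2G40010 is from its peak near the 3′ end, with its summit at 2087 bp, and its peak nearer the start had 171 tags. The summits of AT3G09200 and AT3G11250 were at 368 and 270 bp. AT2G40010, which shares 75.4% to 77.0% of its coding bases with the others, had no ethylene peak.

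In other families the difference was of breadth. The RPS3a genes AT4G34670 and AT3G04840 were 1388 and 845 bp broad in air, with 291 and 253 tags, and 357 and 451 bp broad in ethylene, so the order of their breadths was opposite in the lists. RPL23AB and RPL23AA measured 1207 and 753 bp in air, then 368 and 604 bp in ethylene, also in opposite order, with 284 and 313 tags in air. In RPL10, SAC52 had 1008 bp and 279 tags, SAG24 had 670 bp and 216 tags, and RPL10B had 456 bp and 212 tags. RPL10 is a late-joining protein of the large subunit. Of the RPL28 genes, AT2G19730 had 575 bp and AT4G29410 had 313 bp in air, and neither had a peak in ethylene.

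Among families of genes with unique sequence, those that differed by presence alone in the body were RPL18, where AT5G27850 had a breadth of 797 bp (air) and 482 bp (ethylene) and AT3G05590 had 670 bp in air only, and RPL24, given above. Among the 7 families that did not differ by body peaks were RPL4, RPL5, RPL7, RPS6, RPS10 and RPS18. The rule took breadth and tags from air alone. In ethylene the body breadths were 716 and 267 bp in RPL4, 528 and 303 bp in RPL5, and 230 to 437 bp in RPS18. Each of these 3 families was past 1.5 times there, whereas RPL7, RPS6 and RPS10 stayed within it. In air the RPS18 genes were the most alike of the trios, with 271, 283 and 286 tags, 546, 652 and 641 bp and summits at 202, 162 and 211 bp for RPS18C, PFL and AT1G34030. The RPL4 genes had the same breadth, 632 bp, and 304 and 300 tags in air. RPS6A and the RPS6 gene AT5G10360 had 325 and 304 tags and summits at 246 and 254 bp. The RPL7 gene AT1G80750 is the most distant paralogue of all, with 57.5% to 58.6% of its coding bases shared, and yet its 283 tags and 577 bp fell between those of the other RPL7 genes, which had 257 to 294 tags and 492 to 666 bp.

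Values of the genes so far named only in passing complete the list. Of the RPL5 genes, whose proteins enter the large subunit together with a small ribosomal RNA, AT3G25520 had 776 bp and 282 tags in air (ethylene: 528 bp, 271 tags) and RPL5B had 545 bp and 275 tags (ethylene: 303 bp, 267 tags). RPS10B had 634 bp and 276 tags in air (ethylene: 304 bp, 258 tags). The RPL7 gene AT3G13580 had 492 bp and 272 tags in air (ethylene: 309 bp, 257 tags), and AT2G44120 had 666 bp and 257 tags (ethylene: 333 bp, 227 tags), the lowest tag ratio of the list at 0.852. The intronless RPL27a gene AT1G70600 had 629 bp and 299 tags in air (ethylene: 488 bp, 289 tags), and these peaks spanned 65.6% and 50.9% of its length. In each of these 6 genes breadth was lower in ethylene, and tags differed by less than breadth.

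The presence of an element in the promoter was set beside the peaks. Of the 11 genes with a telo box, 9 had a body peak in air and in ethylene, and the 2 without are the RPL9 genes of repeated sequence. Of the 31 with a site II element, 29 had a body peak in air and 23 in ethylene, and the 2 without an air peak are again these RPL9 genes. Of the 9 genes with neither element, 9 had a body peak in air and 6 in ethylene. Over all coding genes the shares with a body peak were 58.6% in air and 43.4% in ethylene. Median tags in air were 283 with a telo box, 284 with site II and 282 with neither.

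Other genes of protein synthesis were counted by the same rule. The 11 other paralogues of the same proteins were marked at 9 in air and 6 in ethylene, and the 49 genes for other cytosolic ribosomal proteins at 48 and 40, with median body breadths of 587 and 392 bp and median tags of 282 and 280 in air and ethylene. The 30 nuclear genes for plastid ribosomal proteins, which build the chloroplast's own ribosomes, were marked at 30 and 25, with 524 and 347 bp and 292 and 282 tags. The 18 genes for translation factors were marked at 17 and 12, and the 12 genes of ribosome biogenesis and the TOR pathway at 11 and 6. Translation factor genes had body peaks of 22.4% of gene length in air and ribosome biogenesis genes 14%, and these genes are longer, at median lengths of 2574 and 3272 bp. Breadth was lower in ethylene at 38 of 40 other cytosolic ribosomal protein genes marked in both lists and at all 25 plastid ones, again beside 96.7% of all coding genes.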

How the data were processed

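H3K9Ac ChIP-seq peak lists of ein2-5 seedlings treated with air or ethylene were used. The authors mapped single-end reads of 51 bp to TAIR10 with Bowtie 1.1.2, kept unique alignments, merged the reads of both libraries per treatment and ran MACS2 2.1.0.20150603 with the control (p 0.01). Per the file headers, 1 tag per position and strand was kept and the larger data set was scaled to the smaller. The deposited columns used were the pileup signal at the summit, the fold enrichment ratio over local background, the −log10 p and q values, and peak length and summit position. Tags were the pileup divided by the scale, which gave whole numbers within 0.0165 in air and 0.0499 in ethylene.

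Genes, coding sequences and promoters were read from the RefSeq annotation of TAIR10.1 with Python 3.11.15, and 74.7% of air summits fell in the first 600 bp of a coding gene against 10.3% and 10.2% after a shift of 1000 bp either way. Coding-sequence identity (Biopython 1.88) replaced protein identity, and promoter windows were read from the genome because no promoter or protein table was used here. Share, breadth, offset, tags and ratio were computed per gene, with no test, since each treatment has 1 list. The code was tested on simulated data. Members and lists were chosen with earlier results of these data known. Values were given in full for members without a peak in a list, the 5 broadest, narrowest, highest and lowest in air, those not narrower in ethylene, the 5 largest drops, summits outside the first 600 bp, and families whose paralogues differed. The values of 1 family of 2 genes are not reported here singly, and the plots by gene leave it out.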

Additional observations from a re-analysis of the deposited data

How the results depend on the processing

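Of 60 alternative values, none reversed and 1 moved past the limit set for it (a count within 1.5 times, a median within the spread over the genes): without the correction for the ceiling the number of genes with a tag ratio of at least 1.2 was 0 in place of 2. The number of genes marked in ethylene, 33, was 24 at a fold enrichment of at least 2 and 26 at a −log10 q of at least 2, and the number marked in air, 41, was 37 and 41. With the air list reduced to the length of the ethylene list 36 genes were marked in air. The share of all coding genes under these cuts is not given, so how far the contrast with that share holds there was not tested. The uncorrected count, and for the results other than the share of genes with a peak the restriction to peaks that overlap the gene body, were chosen after seeing the data, as was the restriction to genes with unique words for breadth. No paired analysis was possible because each list pools the 2 libraries of its treatment, and for the same reason no library could be left out. The counting intervals leave out variation between seedlings, and the ethylene list rests on the shallower control.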
